A study of Xenopus tropicalis with 11 samples.

Results

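Gastrula Smad2/3 binding was compared with Foxa binding in Xenopus tropicalis frog embryos. Both were mapped by chromatin immunoprecipitation and sequencing (ChIP-seq). The labels of the present series, which holds the Foxa sample, give whole embryos of strain Nigerian. A Smad2/3 peak and a Foxa peak were paired where they overlapped by at least 1 base. By this rule 465 of the 480 Smad2/3 peaks and 465 of the 40925 Foxa peaks formed 466 pairs. The Foxa list is of stage 10.25, the start of gastrulation, and the Smad2/3 list carries the name of a stage shortly after it. The Smad2/3 list and a gastrula Foxh1 list of the same stage come from a reanalysis of an earlier series, with replicates pooled. These lists have no sample of their own here, so their strain and source material are not labelled. The Foxa list rests on 1 library of the present series, made with an antibody labelled Foxa, although the names of its peaks read Foxa2. No treatment or mutation is given for any group. The whole embryos labelled for Foxa mix all cells of the 3 germ layers. Binding of both factors in the same cell therefore cannot be told apart from binding in different cells of the embryo. Lists of Foxh1 at stages 8 and 9 and of Tle at stage 8 were used beside them.

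Smad2 and Smad3 are the transcriptional effectors of Nodal signalling. Nodal ligands bind receptor kinases that phosphorylate these Smads, which then enter the nucleus and bind DNA with partner factors. Foxh1 is the best known of these partners and is supplied maternally in the frog. Foxa proteins are forkhead factors of the organizer and the endoderm, known for binding sites in closed chromatin. Tle is a co-repressor that reaches DNA through other factors. Forkhead factors of both kinds recognise related DNA sequences.

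There is 1 list per factor and stage, so neither a spread between embryos nor a test between conditions can be given. The depth behind the lists is unknown. Intervals below are Wilson 95% intervals, which cover the counting error of peaks only. Neighbouring peaks are not independent, and no p-value was computed. Positions are those of the deposited lists, with a genome build that the sources used here do not name.

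Nearly all Smad2/3 peaks lay at a Foxa peak. The share was 96.9% (94.9 to 98.1%) of 480. The Foxa peaks covered 0.801% of the 1369.8 Mb spanned by the scaffolds. Seen from the Foxa list, which was far longer, the same pairs were 1.14% (1.04 to 1.24%) of the peaks. The Tle list, of the earlier stage 8, had a similar length, 37919 peaks, and covered 0.864% of the span. Of the Smad2/3 peaks, 40.6% (36.3 to 45.1%) had a Tle peak. The share was 73.8% (69.6 to 77.5%) for the 29935 stage 9 Foxh1 peaks, which covered 0.742% of the span. It was 46.5% (42.0 to 50.9%) for the 28611 stage 8 Foxh1 peaks and 54.2% (49.7 to 58.6%) for the 1290 gastrula Foxh1 peaks. For comparison, a Foxa peak was found at 88.9% of all gastrula Foxh1 peaks, 36.4% of stage 9 Foxh1 peaks, 19.8% of stage 8 Foxh1 peaks and 14.5% of Tle peaks. Among gastrula Foxh1 peaks the share with Foxa was 96.5% (93.6 to 98.2%) of the 260 that had Smad2/3 and 87.0% (84.8 to 88.9%) of the 1030 that had none, and these intervals do not overlap.

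The share with Foxa was high at every strength of Smad2/3. The strength was measured as the authors' fold enrichment of the peak over local background. In classes of 96 peaks it was 97.9, 97.9, 95.8, 94.8 and 97.9% from the lowest to the highest fold. Ordered by the deposited −log10 p instead, the shares were 94.8, 93.8, 96.9, 99.0 and 100%. All of these intervals overlap. The intervals also overlapped by Foxh1 of the same stage, with Foxa at 251 of 260 Smad2/3 peaks with gastrula Foxh1 (96.5%) and 214 of 220 without it (97.3%, 94.2 to 98.7%). For stage 9 Foxh1, the earlier binding of the same factor, Foxa was present at 351 of 354 Smad2/3 peaks with it (99.2%, 97.5 to 99.7%) and at 114 of 126 without it (90.5%, 84.1 to 94.5%). All 223 Smad2/3 peaks with stage 8 Foxh1 had Foxa (98.3 to 100%), against 242 of 257 without it (94.2%, 90.6 to 96.4%). Of the Smad2/3 peaks without Foxa, 5 lay on scaffolds where the Foxa list and the stage 8 and 9 Foxh1 lists had no peak at all. These 5 all had gastrula Foxh1, and their part in the shares by Foxh1 was not tested.

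The paired regions differed in the other lists found there, and only some of the combinations are given here. All 4 further lists had a peak at 155 of the 465 paired Smad2/3 peaks (33.3%, 29.2 to 37.7%). At 105 (22.6%, 19.0 to 26.6%) there was no Foxh1 peak of any stage, and 103 of these had no Tle peak either, so that Foxa was the only other factor listed there. At 76 (16.3%, 13.3 to 20.0%) Foxa was joined by stage 9 Foxh1 alone. Smad2/3 and Foxa were therefore found together both at regions with Foxh1 through all stages and at regions with no Foxh1 peak in any list.

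In most pairs the Smad2/3 peak lay almost in full within the Foxa peak. The Smad2/3 peaks were narrower than the Foxa peaks they met, with median widths of 316 and 477 bases. The median overlap was 309 bases, which was 100% of the Smad2/3 peak and 71.3% of the Foxa peak. The Smad2/3 summit lay inside the Foxa peak in 465 of 466 pairs. Pairs were almost all one to one. One Smad2/3 peak met 2 Foxa peaks, and 1 Foxa peak met 2 Smad2/3 peaks. The smallest overlap was 53 bases, where the Smad2/3 peak on scaffold 2:96758676-96759342 reached a narrow second Foxa peak at 96758551-96758728. The closest miss was a Smad2/3 peak on scaffold 2:127815293-127815461, whose nearest Foxa peak began 320 bases beyond its edge. No pair was thus decided by a few bases.

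The Smad2/3 summit and the middle of the Foxa peak were close. The Foxa list gives no summit, so a summit was set against a middle. Pairs were defined by overlap, which by itself limits this distance. The median distance was 42.5 bases, with quartiles of 18.1 and 83.0 bases and a maximum of 504 bases. The 2 positions lay within 25 bases in 159 pairs (34.1%), within 50 bases in 264 (56.7%), within 100 bases in 388 (83.3%) and within 200 bases in 446 (95.7%). The Foxa middle had the higher coordinate in 264 pairs and the lower in 198, with no strand taken into account. For scale, the summit of a Smad2/3 peak lay a median of 22.5 bases from the middle of its own peak. With the middle of both peaks the median distance was 34.3 bases. For the present series, which holds Foxa, the labels' protocols give chromatin sheared to fragments of 200 to 500 bp. Most of these distances are shorter than such fragments. The fragment size behind the Smad2/3 list is not given.

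**Figure D1:**
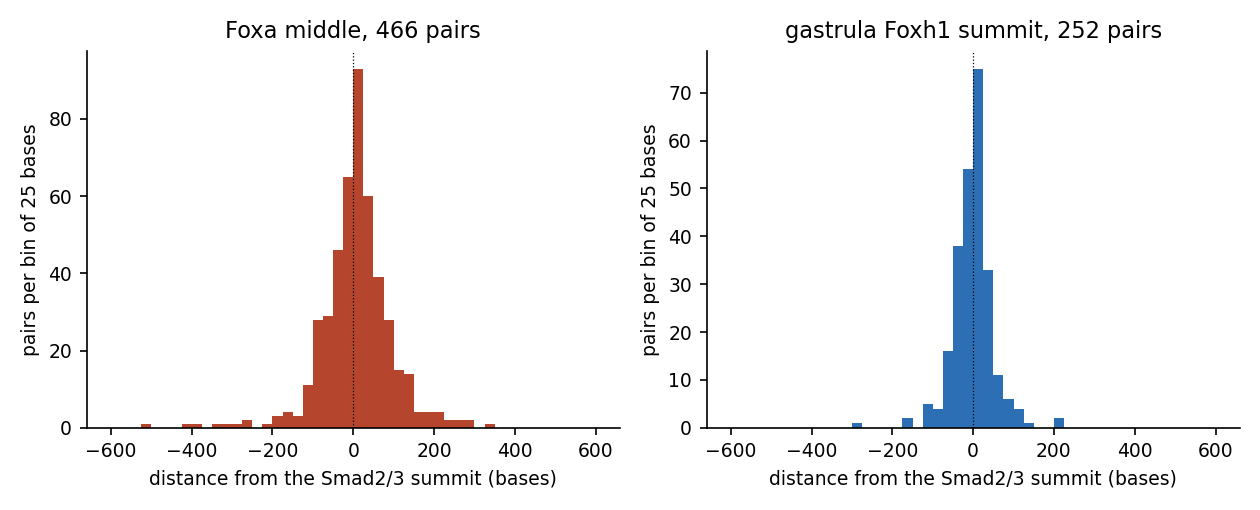
Distance in bases along the scaffold from the Smad2/3 summit (dotted line at 0) to the middle of the paired Foxa peak, left, for 466 pairs, and to the summit of the gastrula Foxh1 peak, right, for the 252 pairs that also had one; bars count pairs in bins of 25 bases. Both are centred near 0, and the Foxa distances spread more widely, with a median size of 42.5 bases against 23.5 bases for Foxh1.

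The distance differed more between classes of Foxa width than between classes of the strength of either factor. Part of this holds by construction, since the Smad2/3 summit lay inside the Foxa peak in 465 of 466 pairs. There the distance cannot exceed that from the Foxa middle to the edge of the Foxa peak. In 3 equal classes of the pairs from the narrowest to the widest Foxa peaks, the median distance was 22.8, 43.0 and 83.0 bases. By Smad2/3 fold, from the lowest, it was 42.3, 42.5 and 43.0 bases. By Foxa score it was 32.8, 39.0 and 52.5 bases, and Foxa score and width were themselves related (Spearman's rho 0.64 over the pairs). Pairs with gastrula Foxh1 had a median of 48.3 bases and pairs without it 34.8 bases. For stage 9 Foxh1 the medians were 48.0 bases with it and 26.5 bases without it. Foxa peaks at pairs with Foxh1 also had higher scores, and the part of score and width in these differences was not tested.

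Where Smad2/3, Foxa and gastrula Foxh1 met, Foxh1 was more often the nearer to Smad2/3, by a margin that depended on the position used. In 252 pairs with a gastrula Foxh1 peak, the Smad2/3 summit lay a median of 48.3 bases (quartiles 22.0 and 89.0) from the Foxa middle. It lay 23.5 bases (10.0 and 47.0) from the Foxh1 summit. The Foxa middle was the nearer in 82 pairs, the Foxh1 summit in 169, and 1 was equal. With the middle of each of the 3 peaks, the medians were 34.3 bases to Foxa and 23.8 bases to Foxh1. The peaks differ in width, with medians of 477 bases for all paired Foxa peaks and 253 bases for all gastrula Foxh1 peaks. The part of width in these distances was not tested. By middles Foxa was the nearer in 116 pairs, Foxh1 in 134, and 2 were equal. Smad2/3 and gastrula Foxh1 share their series of origin, which Foxa does not, and the part of this in the distances was not tested.

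The strengths of the paired peaks had a rank correlation near 0 by fold and a weak one by −log10 p. Over 466 pairs, Spearman's rho of Smad2/3 fold and Foxa score was 0.04. With the −log10 p of the Smad2/3 peak in place of fold it was 0.24. Both are descriptions over peaks of 1 list each, and Smad2/3 width was related to each, with rho 0.44 for width and −log10 p and 0.43 for width and Foxa score. The part of width in the relation by −log10 p was not tested. The measures of Smad2/3 were related to each other with rho 0.84. The median Foxa score was 72.7, 58.6, 54.8, 69.0 and 72.9 in 5 equal classes of the pairs from the lowest to the highest Smad2/3 fold, so the weakest and the strongest Smad2/3 peaks by fold met Foxa peaks of similar score. In 5 classes by −log10 p it was 50.0, 54.6, 60.1, 74.2 and 82.0, a steady climb. Within the pairs with gastrula Foxh1 rho by fold was 0.01 (n = 252), and within those without it −0.01 (n = 214). By −log10 p these were 0.15 and 0.19. In the same 252 pairs Smad2/3 fold and gastrula Foxh1 fold had a rho of 0.33, and gastrula Foxh1 fold and Foxa score 0.07.

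**Figure D2:**
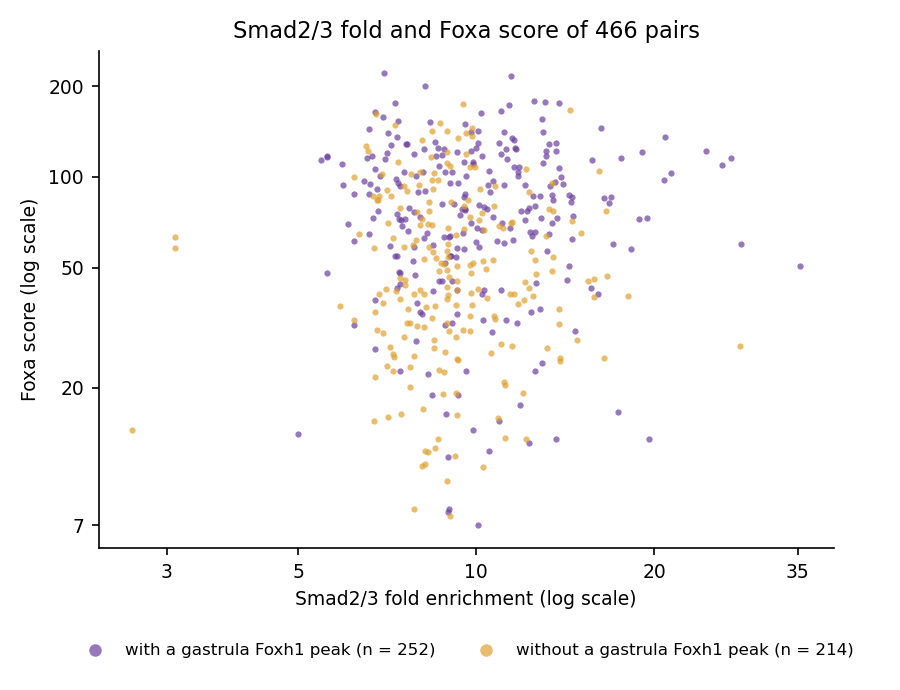
Fold enrichment of the Smad2/3 peak (horizontal, log scale) and score of the Foxa peak (vertical, log scale) in 466 pairs, 252 with a gastrula Foxh1 peak in purple and 214 without in yellow. The points form a cloud with no slope (Spearman's rho 0.04), in which pairs with Foxh1 lie higher on the Foxa axis, with median scores of 79.8 against 46.9.

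Gastrula Foxh1 went with both strengths. Pairs with it had a median Foxa score of 79.8 (quartiles 54.8 and 114) and pairs without it 46.9 (30.8 and 77.0). Their median Smad2/3 fold was 9.82 (7.95 and 12.4) with Foxh1 and 8.93 (7.83 and 10.6) without it, so that these ranges overlapped for the most part. Pairs with Tle, the co-repressor mapped at stage 8, had a median Foxa score of 86.0 and those without it 52.2, while their median Smad2/3 folds were 9.29 and 9.27.

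The strongest Smad2/3 peaks met Foxa peaks of widely different score. The highest fold, 35.4, was that of the peak on scaffold 7:123170862-123171453, which met a Foxa peak of score 50.5, ranked 3194 of 40925 (tied scores take the best rank). Foxh1 was listed there at stage 9 and again in the gastrula. The next, on scaffold 2:46667846-46668147, had a fold of 28.1 and a Foxa score of 59.7, with gastrula Foxh1 and no earlier Foxh1. The peak on scaffold 2:141561277-141561519 had a fold of 27.9, and its summit coincided with the Foxa middle at a distance of 0. Its Foxa score was 27.6, it had stage 8 Foxh1 only, and no other Foxa peak lay within 20 kb. The peak on scaffold 8:82252401-82252744 had a fold of 27.0 and a Foxa score of 116, with 8 more Foxa peaks within 20 kb. Among the 10 highest folds, 8 met a Foxa peak in the highest 10% of the Foxa list, a class with 69.2% of all paired Foxa peaks. The exceptions were the peak with the score of 27.6 and 1 on scaffold 6:95719635-95720011. This second one had a fold of 19.6 and a Foxa score of 13.5, and it was listed with Foxh1 at all stages and with Tle.

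The 5 highest Foxa peaks with Smad2/3 lay under Smad2/3 peaks with folds from 6.98 to 13.1. The Foxa peak of score 221, ranked 6 of 40925, lay under a Smad2/3 peak of fold 6.98 on scaffold 1:169239345-169239690. The next had a score of 217 and a Smad2/3 fold of 11.5, on scaffold 5:117923745-117924006. The Foxa peak ranked 10, with a score of 201, lay under a Smad2/3 peak of fold 8.20 on scaffold 1:88260114-88260480. These 3 had Foxh1 of every stage and Tle. The Foxa peak ranked 24, with a score of 178, lay under a Smad2/3 peak of fold 12.6 on scaffold 9:27241774-27242434, with gastrula Foxh1 alone beside it. The one ranked 27, with a score of 177, lay under a Smad2/3 peak of fold 13.1 on scaffold 8:65381512-65381852, with Foxh1 of every stage and Tle. The lowest paired Foxa scores were 6.98, 7.47 and 7.73. The Smad2/3 peaks there had folds of 10.1 on scaffold 9:21272310-21272594, 9.04 on scaffold 10:460737-460943 and 8.96 on scaffold 4:36273260-36273469. The Smad2/3 folds at both ends of the Foxa scale thus overlapped in range.

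Some peaks were strong by −log10 p and weak by fold. The peaks on scaffold 2:109851591-109852117 and on scaffold 6:82848683-82849747 had the same fold, 3.09, and the same −log10 p, 45.7. Both had a Foxa peak in the highest 10% of that list, with scores of 58.3 and 63.4. Both also had Tle and no Foxh1, and no other Foxa peak within 20 kb. The lowest fold of the list, 2.62, belonged to a peak on scaffold 169:134691-135006 with a Foxa score of 14.4. Identical values were common in the list, since 151 of the 480 Smad2/3 peaks shared both fold and −log10 p with another.

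The 15 Smad2/3 peaks without Foxa were narrow and, by −log10 p, weak. The median width was 316 bases for the paired peaks and 172 bases for the unpaired ones. The median −log10 p was 32.4 for the paired and 25.3 for the unpaired peaks, while the median folds of 9.27 and 9.62 were close. Of the 15, 5 lay on scaffolds with no Foxa peak at all. Those were 3 on scaffold 480 (at 31030-31238, 32364-32710 and 39835-40077), 1 on scaffold 723:15431-15675 and 1 on scaffold 7315:836-1006. On these 3 short scaffolds the gastrula Foxh1 list had 14 peaks, whereas the Foxh1 lists of stages 8 and 9, Tle and Foxa had none. The lists with peaks there are those of the earlier series, so that the origin of the list and the factor cannot be told apart at these 5 peaks.

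The other 10 unpaired peaks lay 494 to 48397 bases from the nearest Foxa middle, 8 of them within 20 kb. The strongest of them had a fold of 12.7 and lay on scaffold 7:15055796-15055995, the farthest from any Foxa peak, with gastrula Foxh1 and Tle. Peaks with gastrula Foxh1 were also found on scaffold 5:119628029-119628192 and 5:76945603-76945755, and on scaffold 1:119412262-119412430. The peak on scaffold 244:135557-135685 had stage 9 Foxh1 only. The remaining 5 had no peak of any other list. They lay on scaffold 7:11425663-11425907 and 7:123531086-123531250, on scaffold 2:127815293-127815461, on scaffold 9:13126270-13126441 and on scaffold 5:117290323-117290549. Their folds were between 7.14 and 9.62. In all, 9 of the 15 had gastrula Foxh1, as did 260 of all 480 Smad2/3 peaks (54.2%, 49.7 to 58.6%). The 9 include the 5 on scaffolds with no Foxa peak.

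Smad2/3 was found at the high end of the Foxa list. The Foxa list was divided by score into deciles of 4092 or 4093 peaks, from 1 (lowest) to 10 (highest). No peak of deciles 1 and 2 had a Smad2/3 peak, which allows a share of up to 0.0733% in each (3 counts, counting error only). From decile 3 to decile 8 the counts were 2, 3, 1, 10, 17 and 22. Decile 9 had 88 (2.15%, 1.75 to 2.64%) and decile 10 had 322 (7.87%, 7.08 to 8.73%). Decile 10, with scores from 42.9 to 238, thus held 69.2% of the paired Foxa peaks, and deciles 9 and 10 together held 88.2%. Deciles 1 to 5, up to a score of 10.8, held 6 peaks. The background over the whole list is the 1.14% given above. Foxa peaks were also wider at higher score, with a median of 152 bases in decile 1 and 455 bases in decile 10. Within decile 10 the median width was 524 bases with Smad2/3 and 449 bases without it. The part of width in these shares was not tested.

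The share also differed within decile 10. In 10 parts of 409 or 410 peaks each, it was 3.66% (2.23 to 5.95%) in the lowest part, 6.11% in part 5 and 20.3% (16.7 to 24.5%) in the highest, where 83 of 409 Foxa peaks with scores above 112 had Smad2/3. Even there 326 peaks had none. The share with gastrula Foxh1 was 9.51% in the lowest part and 33.0% in the highest, and that with stage 9 Foxh1 59.5% and 91.4%. High Foxa score therefore went with every one of these factors.

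**Figure D3:**
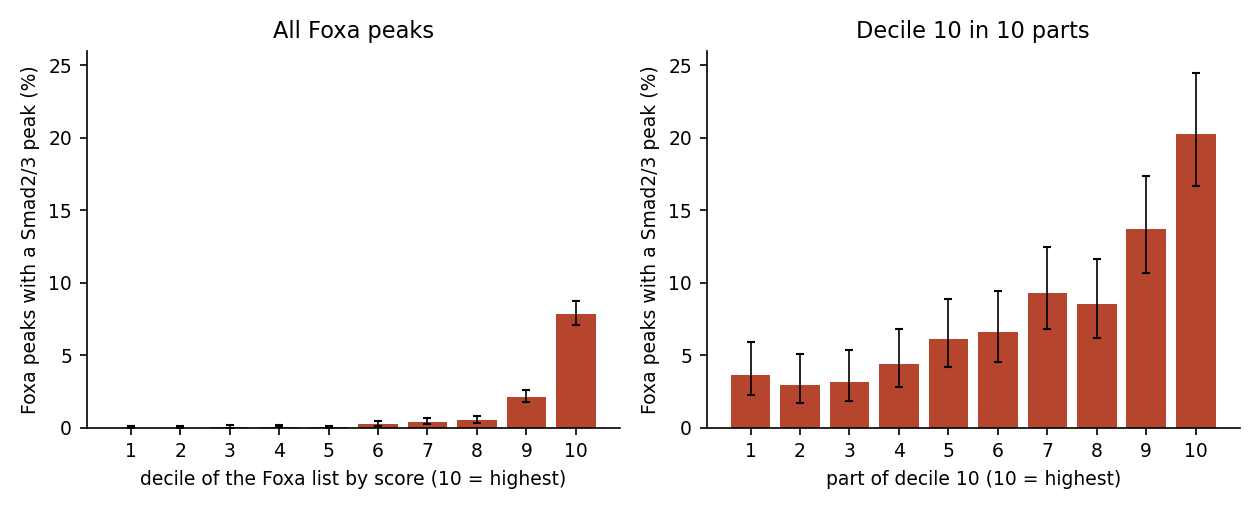
Share of Foxa peaks with a Smad2/3 peak, in percent, by decile of the Foxa list ordered by score (left) and in 10 equal parts of decile 10 (right); bars are shares and lines are Wilson 95% intervals. The share stays under 1% up to decile 8, is 7.87% in decile 10, and within that decile is 3.66% in the lowest and 20.3% in the highest part.

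In every class of Foxa score, a larger share of the Foxa peaks with gastrula Foxh1 than of those without it had Smad2/3. In decile 10 207 of 626 Foxa peaks with gastrula Foxh1 had Smad2/3 (33.1%, 29.5 to 36.8%), against 115 of 3466 without it (3.32%, 2.77 to 3.97%). In decile 9 it was 24 of 199 (12.1%, 8.24 to 17.3%) against 64 of 3894 (1.64%, 1.29 to 2.09%). In deciles 6 to 8 it was 17 of 214 (7.94%, 5.02 to 12.4%) against 32 of 12063 (0.265%, 0.188 to 0.374%). In deciles 1 to 5 it was 3 of 109 (2.75%, 0.940 to 7.78%) against 3 of 20354 (0.0147%, 0.00501 to 0.0433%). Within each class the intervals do not overlap. The share also differed by Foxa score among peaks without gastrula Foxh1, at 0.0147, 0.265, 1.64 and 3.32% from the lowest class to the highest. Gastrula Foxh1 and Smad2/3 come from the same earlier series, and the part of this in the result was not tested. Scores also varied within a class. In decile 10 the shares with gastrula Foxh1 and with Smad2/3 were both higher in the highest part than in the lowest. The part of score within a class was not tested either.

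**Figure D4:**
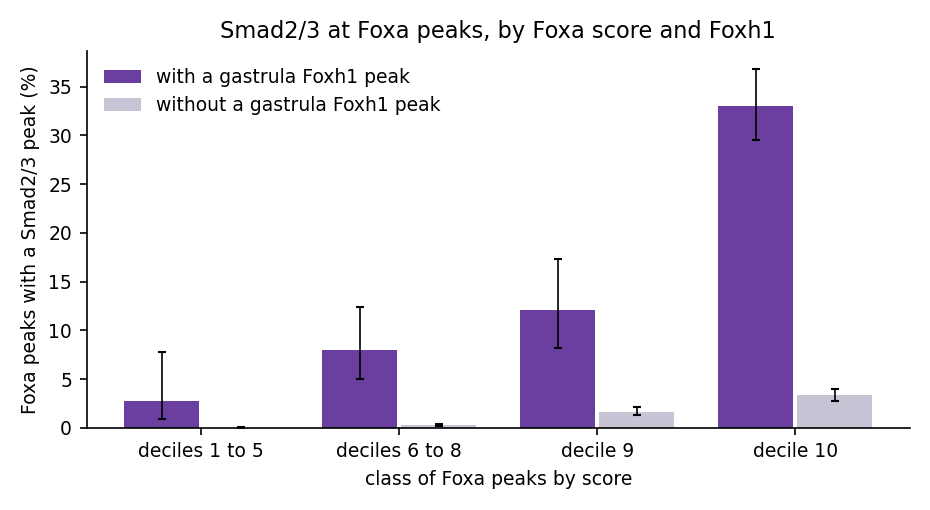
Share of Foxa peaks with a Smad2/3 peak, in percent, by class of Foxa score (decile 10 is the highest), for Foxa peaks with a gastrula Foxh1 peak (purple, left of each pair) and without one (grey); lines are Wilson 95% intervals. The share is 33.1% with and 3.32% without Foxh1 in decile 10, and the order is the same in the 3 lower classes.

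In decile 10 a larger share of the Foxa peaks with earlier Foxh1 or with Tle had Smad2/3. In the lower classes the share was also larger with each of these, except with Tle in deciles 1 to 5. Most of the intervals in the lower classes overlapped. In decile 10 of Foxa the share with Smad2/3 was 9.84% (8.80 to 11.0%) of 2845 peaks with stage 9 Foxh1, against 3.37% (2.50 to 4.52%) of 1247 without it. Of 2228 peaks with stage 9 but no gastrula Foxh1, 3.55% (2.85 to 4.40%) had Smad2/3. Of 1229 peaks with no Foxh1 of any stage, 2.93% (2.12 to 4.03%) had it, and these intervals overlap. For stage 8 Foxh1 the shares were 13.3% (11.6 to 15.3%) with it and 5.20% (4.43 to 6.09%) without it. For Tle they were 11.8% (10.2 to 13.6%) with it and 5.91% (5.08 to 6.85%) without it. Within decile 10 the shares with Smad2/3 and with stage 9 Foxh1 were both higher in the highest part than in the lowest. The part of score within a class in these differences was not tested. In decile 9 the intervals overlapped for stage 9 Foxh1, at 2.53% (1.90 to 3.36%) with it and 1.85% (1.37 to 2.49%) without it. They also overlapped there for Tle, at 3.14% (2.15 to 4.56%) with it and 1.90% (1.48 to 2.43%) without it, but not for stage 8 Foxh1, at 3.66% (2.60 to 5.12%) with it and 1.74% (1.34 to 2.25%) without it. In deciles 6 to 8 the intervals did not overlap for stage 9 Foxh1, at 0.706% (0.471 to 1.06%) with it and 0.288% (0.197 to 0.422%) without it. For stage 8 Foxh1 they overlapped there, at 0.739% (0.423 to 1.29%) with it and 0.347% (0.252 to 0.478%) without it. For Tle the shares in deciles 6 to 8 were 0.504% with it and 0.384% without it, with overlapping intervals. In deciles 1 to 5 they were 0 of 1793 with Tle, which allows up to 0.167% (3 counts), and 6 of 18670 without it. For stage 9 Foxh1 the shares in deciles 1 to 5 were 0.0938% with it and 0.0174% without it. For stage 8 Foxh1 they were 0.0522% and 0.0270%. These rest on few peaks, and the intervals overlapped for both stages. Over the whole Foxa list, gastrula Foxh1 was present at 54.0% of the 465 Foxa peaks with Smad2/3 and at 2.22% of the others, with 2.81% over all. Stage 9 Foxh1 was present at 75.7% and 26.6%, with 27.2% over all, and stage 8 Foxh1 at 48.2% and 13.7%, with 14.1% over all. Tle was present at 41.9% and 13.3%, with 13.6% over all. The Foxa peaks with Smad2/3 were higher and wider, with median scores of 65.5 against 10.7 and median widths of 477 against 229 bases.

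Smad2/3 peaks lay among clusters of Foxa peaks. Within 20 kb on each side of the Smad2/3 summit there were 149.9 Foxa peaks per Mb, the overlapping ones left out. This was 5.02 times the mean of 29.9 per Mb over the scaffolds. A Smad2/3 peak had a median of 5 further Foxa peaks in this window, with quartiles of 2 and 9. At 264 of the 480 (55.0%) there were 5 or more, and at 37 (7.71%) none. The nearest Foxa peak other than the paired one had its middle a median of 1591 bases away, with quartiles of 959 and 3535 bases.

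The density fell with distance. It was 277 Foxa peaks per Mb at 1 to 2 kb from the summit, 212 at 2 to 5 kb, 160 at 5 to 10 kb and 114 at 10 to 20 kb. At 20 to 50 kb it was 71.6 and at 50 to 100 kb 53.5 per Mb, 1.79 times the mean. In the innermost kb it was 141 per Mb. Overlapping Foxa peaks were left out of the counts and the bases they cover were not subtracted, and the part of this in the innermost value was not tested. Windows of neighbouring Smad2/3 peaks overlap, so some Foxa peaks were counted more than once. Counted once each, 2448 Foxa peaks (5.98%) had their middle in these windows, which made up 15.7 Mb or 1.14% of the span. Without the paired ones they were 1983, or 126.6 per Mb, 4.24 times the mean. These neighbours were somewhat stronger than distant Foxa peaks, since 18.2% were in the highest 10% of the list, against 8.86% of the Foxa peaks outside the windows.

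**Figure D5:**
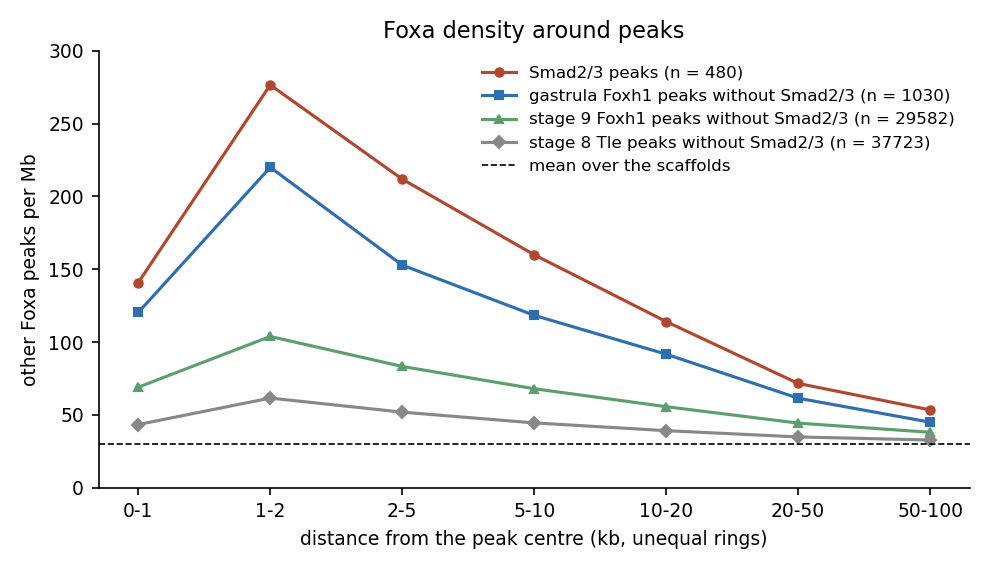
Foxa peaks per Mb (vertical) in rings of distance in kb from the centre of peaks (horizontal, rings of unequal width), with overlapping Foxa peaks left out, around Smad2/3 peaks and around 3 other sets of peaks without Smad2/3; the dashed line is the mean of 29.9 per Mb. The density around Smad2/3 peaks is the highest of the 4 in every ring, with 277 per Mb at 1 to 2 kb. The 4 sets differ in how often their peaks lie at a Foxa peak.

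Foxh1 and Tle peaks without Smad2/3 also lay among Foxa peaks, to a lower degree. Against the 149.9 per Mb around Smad2/3, there were within 20 kb 116 Foxa peaks per Mb around the 1030 gastrula Foxh1 peaks without Smad2/3, 66.0 around the 29582 stage 9 Foxh1 peaks without it and 43.8 around the 37723 Tle peaks without it. The median number of further Foxa peaks was 5 for Smad2/3, against 3, 2 and 1 for these sets. The sets also differed in how often they lay at a Foxa peak. The share was 96.9% for Smad2/3 and 87.0% for the gastrula Foxh1 peaks without it. It was 36.4% for all stage 9 Foxh1 peaks and 14.5% for all Tle peaks. The part of this in the densities was not tested. Among the Smad2/3 peaks the density was 172 per Mb around the 260 with gastrula Foxh1 and 123 around the 220 without it. Their paired Foxa peaks had median scores of 79.8 and 46.9, and the part of Foxa score in these 2 densities was not tested. The upper and the lower 50% of the Smad2/3 list by fold had 146 and 154 per Mb, which differ little. Of the lists around Smad2/3, relative to each list's own mean, Foxa at 5.02 times was above stage 9 Foxh1 at 3.98, stage 8 Foxh1 at 2.65 and Tle at 2.08 times. The short gastrula Foxh1 list had 21.5 times its mean.

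High densities were also seen around Foxa peaks of the same score class that lacked Smad2/3. In decile 10 the density within 20 kb was 169 per Mb around the 322 Foxa peaks with Smad2/3 and 139.8 around the 3770 without it. Their medians were 6 and 5 further Foxa peaks, with quartiles of 3 and 10 against 2 and 8. The median scores of these peaks differed, at 84.4 and 63.1. Among the 409 Foxa peaks of highest score the median score was the same to 3 digits, 129.9 for the 83 with Smad2/3 and 129.9 for the 326 without it. The density there was 205 and 179 per Mb, with medians of 8 and 7 further peaks and quartiles of 4.5 and 11.5 against 4 and 10. These ranges overlap almost in full. Both densities, with and without Smad2/3, were above the 149.9 per Mb around all Smad2/3 peaks. Decile 9 had 128 per Mb around 88 peaks with Smad2/3 and 104 around 4005 without it. The shares of Foxa peaks that were the top ones of their neighbourhood had overlapping intervals with and without Smad2/3. In decile 10 201 of 311 Foxa peaks with Smad2/3 (64.6%, 59.2 to 69.7%) had the highest Foxa score within 20 kb, against 2222 of 3575 without it (62.2%, 60.6 to 63.7%), counting those with at least 1 neighbour.

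Smad2/3 peaks themselves formed small groups. With summits linked across gaps of up to 20 kb, 133 of the 480 peaks (27.7%) fell into 49 groups of 2 or more, and 347 stood alone. Grouped peaks had a median of 9 further Foxa peaks within 20 kb and lone peaks 4. The Foxa peaks paired with other members of a group count among these by construction. With only the Foxa peaks that had no Smad2/3, an alternative chosen after the values were seen, the medians were 7 and 4. The largest groups had 4 Smad2/3 peaks, of which there were 13. All 52 peaks in them had Foxa, close to the 96.9% of all 480 Smad2/3 peaks. Of these groups, 3 lay near each other on scaffold 5, at 117920820-117939097, 118063144-118072308 and 118173262-118191134. Every Smad2/3 peak in these 3 groups had gastrula Foxh1 as well as Foxa, against 54.2% with gastrula Foxh1 among all Smad2/3 peaks. By contrast, the group on scaffold 6:41131525-41143926 had 4 Smad2/3 and 12 Foxa peaks within its reach, and no gastrula Foxh1 peak. Some other groups of 4, on scaffolds 1, 3 and 4, also had gastrula Foxh1 at every Smad2/3 peak. This was thus not particular to the 3 neighbouring groups on scaffold 5. The remaining groups of 4 had gastrula Foxh1 at 2 or 3 Smad2/3 peaks. The tightest of the 13 groups of 4 spanned 4998 bases on scaffold 1:152995546-153000543, with 4 peaks of folds between 6.89 and 18.9.

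The Smad2/3 peak with most Foxa neighbours lay on scaffold 1:38134224-38134509, with 32 further Foxa peaks within 20 kb. It had a fold of 7.33 and a Foxa score of 98.4. The next had 21, on scaffold 7:21479972-21480307, with a fold of 9.63 and a Foxa score of 139.8. A peak with 19 lay on scaffold 2:3636353-3636639, with a fold of 7.06, a Foxa score of only 23.6 and no Foxh1 or Tle peak. Peaks with 17 lay on scaffold 4:22511966-22512254 and on scaffold 8:82288325-82288926, at folds of 7.55 and 8.17. The 5 peaks with most Foxa neighbours thus had Smad2/3 folds from 7.06 to 9.63, around or below the median of 9.28.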

How the data were processed

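Of 11 ChIP-seq and input samples, 4 have a peak list, and 2 more lists belong to the whole series. The submitters' processing notes name HOMER 4.7, SAMtools, MACS2 2.0.10 and Bowtie 1.0.0. The sources used here give no role for them, and no control, threshold or build. In the deposited Smad2/3 and Foxh1 lists, the ratio is the authors' fold enrichment of a peak over local background, and the deposited −log10 p is that of the peak. The deposited score there is 10 times that −log10 p, rounded down. The deposited Foxa and Tle lists hold 1 score per peak, set by the authors' peak caller, and whether it stands for p or q is unknown. Replicates were pooled by the authors except for Foxa and Tle, each 1 library.

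Peaks were paired by an overlap of 1 base, and the pairs were the same as those of bedtools. The code was tested on simulated data. Summits were start plus offset. Foxa density counts middles per Mb, up to the furthest peak end on each of 1234 scaffolds. Deciles follow the Foxa score, with ties in file order. The members, lists and measures were chosen with earlier results of these data known. Named peaks are the 10 highest Smad2/3 folds, all unpaired ones, the extremes of paired Foxa score and the 5 with most Foxa neighbours. The lowest folds and the smallest overlap, and the groups, were added after values were seen. The gene table given was of another assembly, so no gene is named and no sequence printed. The software was matplotlib 3.10.9, scipy 1.17.1, pandas 2.3.3 and numpy 2.4.6 under Python 3.11.15.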

Additional observations from a re-analysis of the deposited data

How the results depend on the processing

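Alternatives were a pair of at least 50% of both peaks, centres within 100 bases, the upper 50% of either list, the 10 longest scaffolds, other centres, other windows and, for grouped and lone Smad2/3 peaks, Foxa peaks without Smad2/3 only. Of 38 recomputed values 24 stayed within the interval of the reported share or within 1.5 times the reported value. The share of Smad2/3 peaks with Foxa was 84.2% when each peak had to be covered to at least 50%, and 80.8% when centres had to lie within 100 bases. It was 95.6 to 97.9% in the other settings. The share of Foxa peaks with Smad2/3 was 0.987 and 0.948% in these 2 settings, and in decile 10 of Foxa 6.67 and 6.40%. With the upper 50% of the Smad2/3 list they were 0.564 and 4.08%. With the upper 50% of the Foxa list they were 2.24 and 11.7%, and the Foxa density was 96.6 per Mb. Both settings shorten a list, so part of these shifts holds by construction. The highest 10% of the shortened Foxa list is also a narrower class of score. How much of the shifts this makes up was not tested. The rank correlation was 0.11 with the 50% overlap, −0.000368 in the upper 50% of Smad2/3 peaks and 0.24 by −log10 p; the cause was not tested. The median distance ranged from 32.0 to 45.0 bases. Against the reported 149.9 per Mb, the Foxa density was 210 per Mb with a window of 5 kb and 103 with 50 kb. It was 132 with 1 Smad2/3 peak per group and 175 with overlapping Foxa peaks counted. These densities count as within 1.5 times the reported one. No paired analysis was possible because there is 1 list per factor and no replicate-level list was used. The unknown depth limits what a missing peak can show.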
